A study of Mus musculus with 28 samples.

Results

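The 5 miRNAs described here are those that white blood cells are known for: mmu-miR-142a-3p, mmu-miR-142a-5p, mmu-miR-223-3p, mmu-miR-150-5p and mmu-miR-342-3p. They were taken by name and make up 5 of the 569 miRNA rows of the deposited table. All 5 had values in subchondral bone. In cartilage, mmu-miR-142a-3p, mmu-miR-223-3p and mmu-miR-342-3p had values, 3 of 438 rows, against 5 of 490 rows in bone.

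The arrays compared mice operated on to destabilise the medial meniscus (DMM), a model of osteoarthritis, with mice given a sham operation. In DMM the medial menisco-tibial ligament was cut, and in sham it was exposed and left intact. Both knees of a mouse had the same operation, so no group held an unoperated knee. The mice were C57BL6 males, 10 to 12 weeks old at surgery, and tissue was taken 1 or 6 weeks later. Cartilage and subchondral bone of the medial tibial plateau were cut out by laser from decalcified frozen sections, and 70 ng of RNA was labelled for each array. The 8 groups were cartilage and bone, each after DMM or sham, at week 1 or week 6. A cartilage group had 3 arrays, each from a pool of 3 mice, and a bone group had 4 arrays, each from 1 mouse. Replicates are named by the numbers in the titles for cartilage and by order of listing for bone. Mice of week 6 were older when tissue was taken. In bone their animal numbers were also all lower than those of week 1. Differences between weeks cannot be told apart from these.

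A miRNA is a short RNA that loads into an Argonaute protein and lowers the output of mRNAs that pair with its seed, bases 2 to 8. The miR-142 gene is active across the blood lineages, and both arms of its hairpin are used as marks of leukocytes. miR-223 is abundant in neutrophils and their precursors and in monocytes. miR-150 is abundant in mature lymphocytes, and miR-342 lies in an intron of the gene Evl and is abundant in lymphoid cells, though not restricted to them. Subchondral bone borders on marrow, which holds all these cells, whereas healthy cartilage has no blood vessels and few cells other than chondrocytes.

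Mature sequences were matched by name to RefSeq (GRCm38.p6) for 4 of the 5 miRNAs. They are shown because the seed sets each miRNA apart in what it pairs with. Capitals mark the seed:
mmu-miR-142a-3p: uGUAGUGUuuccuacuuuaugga
mmu-miR-142a-5p: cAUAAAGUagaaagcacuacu
mmu-miR-223-3p: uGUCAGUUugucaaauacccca
mmu-miR-342-3p: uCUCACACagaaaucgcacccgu
No seed was shared among these 4, nor by any of them with another measured miRNA for which a sequence was matched. mmu-miR-142a-3p lies at chr11:87756903-87756925 and mmu-miR-142a-5p at chr11:87756867-87756887, on the plus strand of the Mir142 hairpin, where the antisense miRNA gene Mir142b overlaps. mmu-miR-223-3p lies at chrX:96242884-96242905, inside the span of the long non-coding RNA F630028O10Rik. mmu-miR-342-3p lies at chr12:108658680-108658702, inside Evl. The Mir150 hairpin lies at chr7:45121757-45121821 and overlaps no other listed gene.

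The miR-142 hairpin is shown because both arms were measured in bone and come from this 1 transcript. Capitals mark the arms:
miR-142 hairpin: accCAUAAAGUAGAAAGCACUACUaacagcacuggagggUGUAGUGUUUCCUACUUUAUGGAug

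Values are log2 signals as deposited, so a difference of 1 is a 2-fold change. The number of arrays limits the precision. Array medians lay between 6.26 and 6.32 in cartilage and between 6.17 and 6.39 in bone. The mean correlation of an array with the others of its group was 0.968 to 0.991 in cartilage and 0.866 to 0.981 in bone, lowest for bone sham week 1 replicate 1. The cartilage arrays carry cartilage in the source field and bone in another field. The cartilage miRNA mmu-miR-140-3p averaged 13.41 in them and 9.34 in the bone arrays, and the source field was followed.

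**Figure D1:**
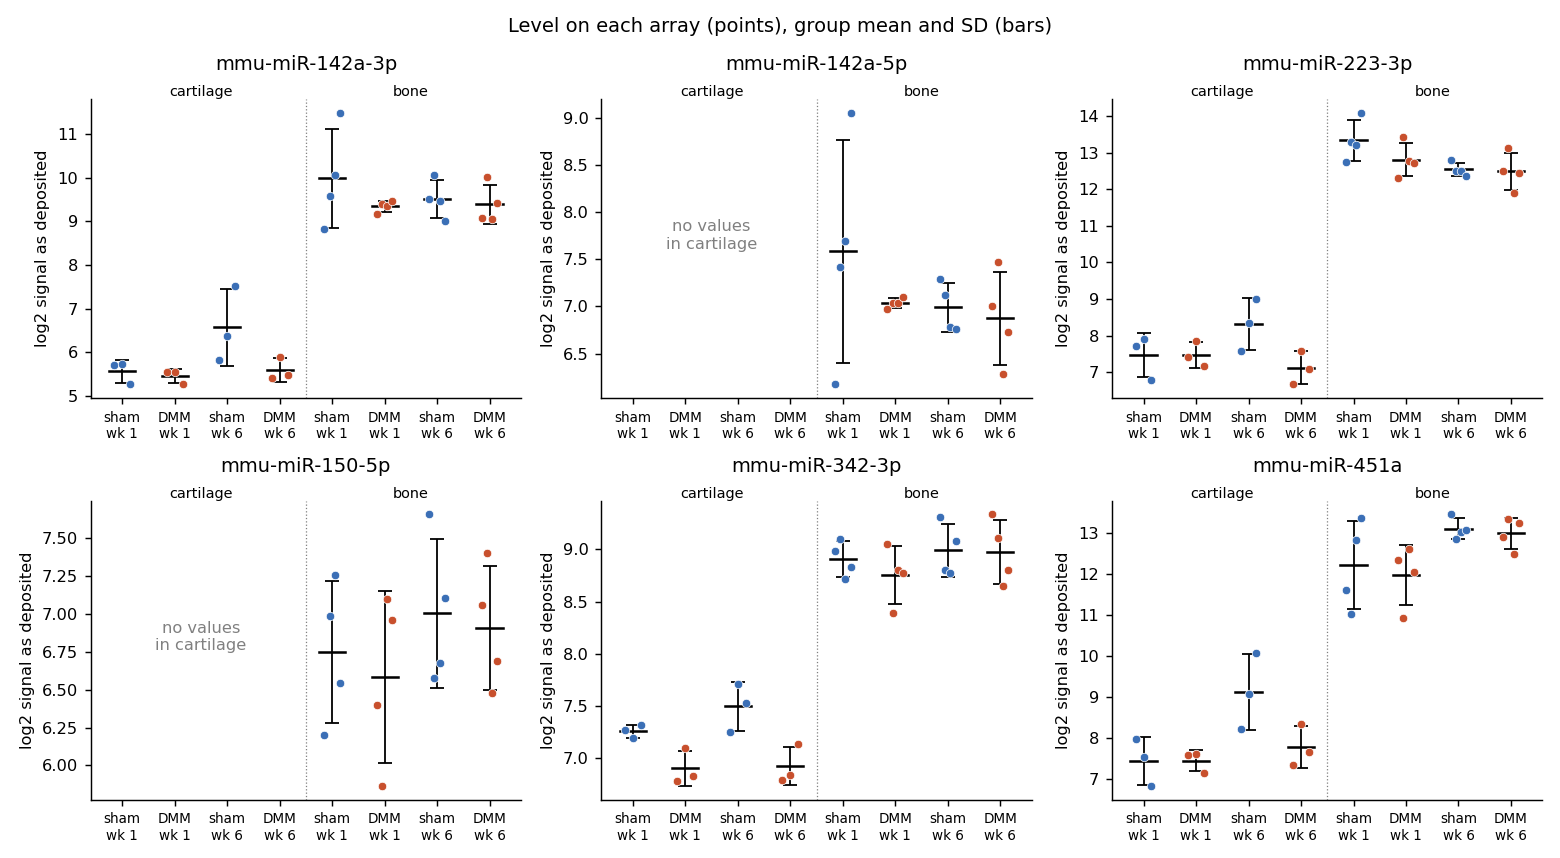
Log2 signal as deposited (vertical axes) of the 5 leukocyte miRNAs and the red cell miRNA mmu-miR-451a on every array (points), by tissue, operation and week (horizontal axes), with group mean and SD. Every bone array lies above every cartilage array for the miRNAs with values in both tissues, and within cartilage the sham week 6 group reaches highest.

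The leukocyte miRNAs stood far higher in bone than in cartilage. The normalization that links the tissues was not given in the sources used here, so these levels are set side by side with no test. mmu-miR-223-3p averaged 12.80 in bone and 7.59 in cartilage, a difference of 5.20 that was the largest of the 359 rows with values in both tissues. The lowest bone array, 11.91, lay 2.90 above the highest cartilage array, 9.01. mmu-miR-142a-3p averaged 9.56 in bone and 5.79 in cartilage, a difference of 3.77 that ranked 4 among the shared rows. mmu-miR-342-3p differed by 1.76, which ranked 25, and its lowest bone array lay 0.67 above its highest cartilage array. mmu-miR-451a, which is made in the red cell lineage, differed by 4.62 and ranked 2. The median over the 359 shared rows was 0.060.

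Within a tissue the groups lay much closer. In bone the order of means for mmu-miR-223-3p was sham week 1, DMM week 1, sham week 6 and DMM week 6, and each neighbour differed from the next by less than the larger of their SDs. The same held for the neighbours in bone of mmu-miR-142a-3p, mmu-miR-142a-5p, mmu-miR-150-5p and mmu-miR-342-3p. In cartilage sham week 6 was highest for mmu-miR-142a-3p, mmu-miR-223-3p and mmu-miR-342-3p. It exceeded the next group by more than the larger of the SDs for each, narrowly so for mmu-miR-342-3p.

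In cartilage at week 6 the myeloid mmu-miR-223-3p and the mmu-miR-342-3p row were lower after DMM than after sham, and mmu-miR-142a-3p lay lower without passing the test. mmu-miR-223-3p read 7.58, 8.34 and 9.01 after sham and 6.69, 7.59 and 7.08 after DMM, in replicates 1, 2 and 3. The groups touched only at sham replicate 1 and DMM replicate 2, which lay within 0.01 of each other. The difference was -1.19 ± 0.37 (SE), 2.28-fold, with an adjusted p of 0.0465 from limma over 438 rows.

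mmu-miR-342-3p read 7.25, 7.71 and 7.53 after sham and 6.79, 6.84 and 7.13 after DMM. These groups did not overlap. The difference was -0.57 ± 0.14 (SE), 1.49-fold, with an adjusted p of 0.0172. It was smaller than that of mmu-miR-223-3p, but its spread between pools was smaller too.

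mmu-miR-142a-3p read 5.82, 6.36 and 7.53 after sham and 5.40, 5.90 and 5.47 after DMM. Sham replicate 1 lay below the highest DMM array, so the groups overlapped. This row was weak in cartilage. The share of rows below it on an array had a median of 14.2% and ran from 0.685% to 77.6%. The difference of -0.98 ± 0.33 (SE), 1.97-fold, had an adjusted p of 0.0566. Of all 438 rows 16.9% passed the threshold of an adjusted p under 0.05 in either direction and 7.31% passed as lower, so the 2 of 3 leukocyte rows that fell stand against that background. In these dissected samples fewer cells of a type and less RNA per cell cannot be told apart.

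Set against week 1, the 3 rows differed in where their week 6 arrays lay. For mmu-miR-142a-3p the week 6 DMM arrays lay between 5.40 and 5.90, and the 6 week 1 arrays of both operations between 5.26 and 5.74. Every sham array of week 6 lay above those week 1 arrays, but sham week 6 replicate 1, at 5.82, lay below the highest week 6 DMM array. For mmu-miR-223-3p the week 6 DMM arrays lay between 6.69 and 7.59 and the week 1 arrays between 6.79 and 7.92, which also took in sham week 6 replicate 1. For all 3 miRNAs the 2 highest of the 12 cartilage arrays were sham week 6 replicates 2 and 3. For mmu-miR-342-3p the week 6 DMM arrays, 6.79 to 7.13, also lay below every week 1 sham array, 7.19 to 7.31. From week 1 to week 6 after sham, mmu-miR-142a-3p differed by 1.00 ± 0.33 (SE) with groups that did not overlap. Its adjusted p was 0.175, and without sham week 6 replicate 3 the difference was 0.52.

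mmu-miR-223-3p differed by 0.83 ± 0.37 between these sham groups with an adjusted p of 0.272, and mmu-miR-342-3p by 0.24 ± 0.14 with 0.379. The first was 0.48 without sham week 6 replicate 3 and 0.49 without sham week 1 replicate 3, and the second 0.13 without sham week 6 replicate 2 and 0.36 without replicate 1. None of the 3 passed limma's test, and 0.228% of the 438 rows did, though 77 had an unadjusted p under 0.05. After DMM the same step from week 1 to week 6 gave 0.13 for mmu-miR-142a-3p, -0.35 for mmu-miR-223-3p and 0.02 for mmu-miR-342-3p. None of these passed either, with 4.79% of rows past the threshold. The sham week 6 arrays enter both this comparison and the one with DMM.

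The calls at week 6 rest on few arrays. mmu-miR-223-3p stayed past the threshold in 2 of the 12 fits that each left out 1 cartilage array, and mmu-miR-342-3p in 8 of 12. The fits that lost mmu-miR-342-3p left out sham week 6 replicate 2 or 3 or DMM week 6 replicate 1 or 2. mmu-miR-223-3p was lost in those 4, without DMM week 6 replicate 3, and without any week 1 array other than sham replicate 3. Its adjusted p then ran from 0.0531 to 0.153. Without sham week 6 replicate 1, the lowest of its group, all 3 passed, with differences of -1.36 for mmu-miR-142a-3p, -1.55 for mmu-miR-223-3p and -0.70 for mmu-miR-342-3p.

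Without sham week 6 replicate 3, the highest for mmu-miR-142a-3p and mmu-miR-223-3p, those differences were -0.50 and -0.84. No fit turned a direction. With a score of the main trend among bone arrays added as a covariate, none of the 438 rows passed. The differences were then -0.99 for mmu-miR-223-3p, -0.84 for mmu-miR-142a-3p and -0.36 for mmu-miR-342-3p. That score ran from -0.84 to 0.31 in cartilage after DMM and from 0.18 to 0.65 after sham. At week 1 it was -0.84 to -0.54 after DMM and 0.18 to 0.31 after sham. At week 6 it was -0.365 to 0.31 after DMM and 0.46 to 0.65 after sham. The operations thus did not overlap in score at either week, as no group means were removed from it. The fit can hardly tell the score apart from the operation, and the score's part in the result was not tested beyond this fit.

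**Figure D2:**
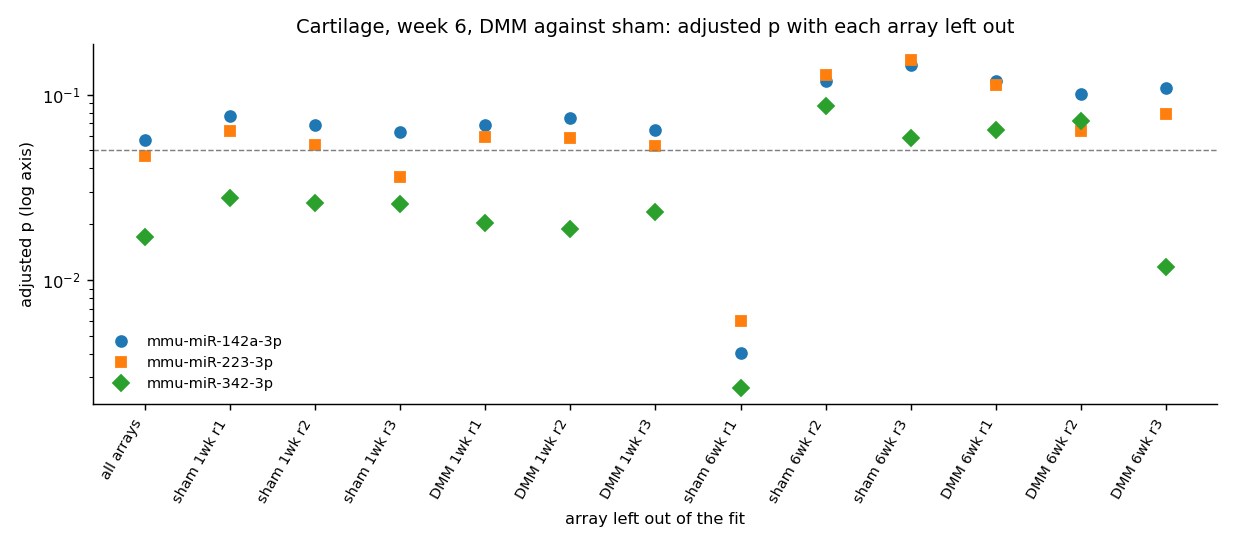
Adjusted p (vertical log axis) of the DMM difference at week 6 in cartilage for the 3 leukocyte miRNAs, with all arrays and with each of the 12 cartilage arrays left out in turn (horizontal axis); the dashed line marks 0.05. mmu-miR-342-3p lies under the line in 8 of the 12 fits and mmu-miR-223-3p in 2.

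At week 1 the cartilage values showed no such pattern for the myeloid miRNA. mmu-miR-223-3p read 7.72, 7.92 and 6.79 after sham and 7.41, 7.85 and 7.16 after DMM, fully interleaved. The difference was -0.004 with a 95% confidence interval from -0.82 to 0.81. mmu-miR-142a-3p read 5.70, 5.74 and 5.26 after sham and 5.54, 5.56 and 5.27 after DMM, a difference of -0.11 with an interval from -0.83 to 0.61.

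mmu-miR-342-3p lay lower after DMM at week 1 without passing the test. It read 7.27, 7.19 and 7.31 after sham and 6.78, 7.10 and 6.83 after DMM, with no overlap. The difference of -0.36 ± 0.14 (SE) had an unadjusted p of 0.0257 and an adjusted p of 0.0775 in limma over 438 rows. None of the 3 leukocyte rows passed, whereas 27.9% of the 438 rows did. mmu-miR-342-3p did pass without sham week 6 replicate 1, which enters only through the shared spread, with an adjusted p of 0.0422. With the score of the bone trend as a covariate in limma, under the limit given above, the difference was -0.076 with an adjusted p of 0.906.

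The week 6 difference minus the week 1 difference was -1.19 for mmu-miR-223-3p, with an unadjusted p of 0.0441 and an adjusted p of 0.999. It was -0.87 for mmu-miR-142a-3p and -0.39 without sham week 6 replicate 3. It was -0.22 for mmu-miR-342-3p, from -0.34 without sham week 6 replicate 1 to -0.11 without replicate 2, and -0.12 without DMM week 1 replicate 2. No row of the 438 passed in limma's test of this difference, 0%, while 13 had an unadjusted p under 0.05. A change of the DMM difference between weeks is thus not shown for any of them.

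**Figure D3:**
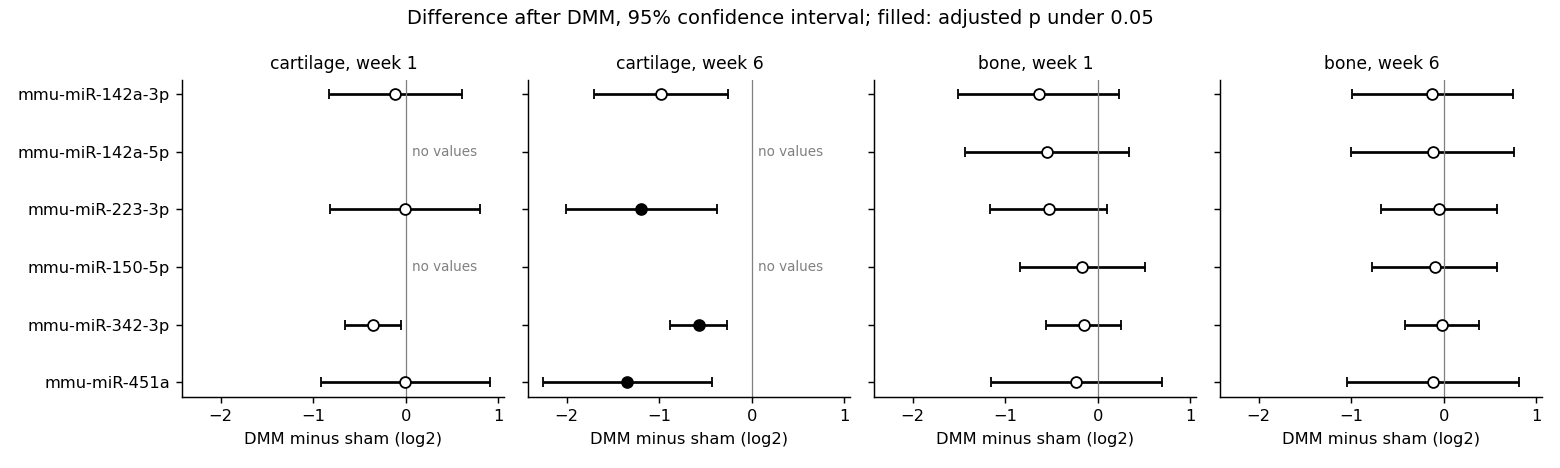
Difference of DMM minus sham in log2 signal (horizontal axes) with its 95% confidence interval for each miRNA in both tissues and weeks; filled points have an adjusted p under 0.05. In cartilage at week 6, mmu-miR-223-3p, mmu-miR-342-3p and mmu-miR-451a are filled; in bone no point is filled, and all intervals cross 0.

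In bone the leukocyte miRNAs did not pass the test at either week. At week 1, mmu-miR-223-3p read 12.75, 13.30, 13.21 and 14.09 after sham and 12.31, 13.42, 12.77 and 12.72 after DMM. Sham replicate 4 was highest and the rest overlapped. The difference was -0.53 with a 95% confidence interval from -1.16 to 0.10.

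mmu-miR-142a-3p read 8.82, 9.58, 10.06 and 11.49 after sham and 9.17, 9.39, 9.35 and 9.48 after DMM. The sham mice spread over an SD of 1.13 and the DMM mice over 0.13, and the DMM values lay inside the sham range. The difference was -0.64, with an interval from -1.51 to 0.23. Its partner arm mmu-miR-142a-5p read 6.17, 7.42, 7.69 and 9.05 after sham and 6.97, 7.04, 7.04 and 7.10 after DMM. The same sham mouse, replicate 4, was highest and the same one, replicate 1, lowest for both arms. The difference was -0.55.

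mmu-miR-150-5p and mmu-miR-342-3p, the miRNAs best known from lymphoid cells, had smaller differences, which were not told apart from the others by a test. Outside the 5, mmu-miR-511-3p, the other listed myeloid miRNA with values in bone, also had a small difference of -0.16. It was a weaker row, with a mean of 5.84 in bone. mmu-miR-150-5p read 6.20, 6.99, 7.26 and 6.54 after sham and 6.40, 5.86, 7.10 and 6.96 after DMM, a difference of -0.17 with an interval from -0.84 to 0.51. mmu-miR-342-3p read 8.99, 9.10, 8.71 and 8.83 after sham and 9.05, 8.39, 8.80 and 8.78 after DMM, a difference of -0.15 with an interval from -0.55 to 0.25. Neither was highest in sham replicate 4. All 5 differences lay below 0, their adjusted p was 0.999, and no row of the 490 passed in limma, 0%, with 3 at an unadjusted p under 0.05. Without sham replicate 4 the differences of mmu-miR-142a-3p, mmu-miR-142a-5p and mmu-miR-223-3p shrank to -0.14, -0.06 and -0.28, while those of mmu-miR-150-5p and mmu-miR-342-3p were -0.23 and -0.18.

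At week 6 the bone differences were nearer 0. mmu-miR-223-3p read 12.80, 12.49, 12.51 and 12.37 after sham and 12.50, 13.14, 11.91 and 12.44 after DMM, a difference of -0.05 with an interval from -0.67 to 0.58. mmu-miR-142a-3p read 9.52, 10.06, 9.46 and 9.01 after sham and 9.07, 10.02, 9.05 and 9.43 after DMM, a difference of -0.12. mmu-miR-142a-5p read 7.29, 7.12, 6.78 and 6.76 after sham and 7.004, 7.47, 6.29 and 6.73 after DMM, also -0.12. In all of these the DMM and sham values overlapped throughout.

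mmu-miR-150-5p read 7.66, 6.58, 6.68 and 7.10 after sham and 7.06, 7.40, 6.48 and 6.69 after DMM, a difference of -0.10. mmu-miR-342-3p read 9.31, 8.81, 8.77 and 9.08 after sham and 9.34, 9.11, 8.65 and 8.80 after DMM, a difference of -0.02 with an interval from -0.42 to 0.39. Both overlapped throughout. No row of the 490 passed in limma, 0%, and 2 had an unadjusted p under 0.05. The change of the DMM difference between weeks also gave no call in bone, 0% of 490 rows with 1 at an unadjusted p under 0.05.

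Between weeks after sham, mmu-miR-223-3p had the largest difference of the 5 in bone. From week 1 to week 6 after sham it differed by -0.79 ± 0.30 (SE), 1.74-fold, with an unadjusted p of 0.0163 and an adjusted p of 0.414 from limma over 490 rows. mmu-miR-142a-3p differed by -0.47 and mmu-miR-142a-5p by -0.59, while mmu-miR-150-5p and mmu-miR-342-3p lay at 0.26 and 0.08. mmu-miR-511-3p, the other listed myeloid miRNA with values in bone, lay at -0.18. Falls of this size were not particular to leukocyte miRNAs. Medians were -0.56 for blood vessel lining, -0.53 for mesenchymal and -0.43 for cartilage miRNAs, against -0.09 over all rows. The red cell median was 0.20, and the 1 muscle miRNA with values lay at 0.56. None of the 5 passed, and neither did any of the 490 rows, 0%, though 54 had an unadjusted p under 0.05. With arrays weighted by quality, mmu-miR-223-3p and mmu-miR-142a-5p passed, with adjusted p of 0.0125 and 0.0499. Without sham week 1 replicate 4 the difference of mmu-miR-142a-3p turned to 0.03, that of mmu-miR-142a-5p was -0.10 and that of mmu-miR-223-3p was -0.54. That of mmu-miR-150-5p ran from 0.039 to 0.427 with 1 array left out, lowest without sham week 6 replicate 1 and highest without sham week 1 replicate 3. After DMM the same step gave no call, 0% of 490 rows with 95 at an unadjusted p under 0.05, with the largest differences 0.33 for mmu-miR-150-5p and -0.31 for mmu-miR-223-3p.

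The DMM difference in cartilage was also set against that in bone, over the 359 shared rows. At week 6, mmu-miR-223-3p differed between the tissues by -1.14 with an unadjusted p of 0.0303, and mmu-miR-342-3p by -0.56 with 0.0378. Their adjusted p was 0.772, and 0.557% of the rows passed in limma. This adjusted p depended strongly on the setting of the fit, though none passed in any. The lowest in limma was 0.064 for mmu-miR-223-3p, 0.053 for mmu-miR-142a-3p and 0.160 for mmu-miR-342-3p, and the highest 0.9996 for each. At week 1 the unadjusted p of mmu-miR-142a-3p, mmu-miR-223-3p and mmu-miR-342-3p lay between 0.300 and 0.427, with 0.279% of the rows past the threshold. A difference between tissues in the response of these miRNAs is therefore not shown.

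Red cell miRNAs fell beside mmu-miR-223-3p and mmu-miR-342-3p in cartilage at week 6. mmu-miR-451a, the red cell miRNA, read 8.23, 9.07 and 10.09 after sham at week 6 and 7.35, 8.35 and 7.67 after DMM. Its difference of -1.34 ± 0.42 (SE), 2.54-fold, had an adjusted p of 0.0465, and at week 1 its difference was -0.003. The other red cell miRNA with values in cartilage, mmu-miR-486a-5p, differed by -0.50 with an adjusted p of 0.0283. Over these 2 of 6 listed red cell miRNAs the log2 of the summed signal was 8.50 to 10.2 after sham at week 6, 7.75 to 8.55 after DMM at week 6, and 7.41 to 8.27 in the week 1 groups. mmu-miR-126a-3p, a miRNA of blood vessel lining, differed by -0.74 with an adjusted p of 0.248. Of 4 muscle miRNAs, mmu-miR-206-3p was higher after DMM by 0.53 with an adjusted p of 0.0166, and the other 3 lay between -0.06 and 0.05 without passing. The log2 of their summed signal was 7.75 to 8.57 after sham and 7.61 to 9.27 after DMM. The part of all these markers in the leukocyte result was not tested.

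The sequence of the red cell miRNA is shown beside those of the leukocyte miRNAs because it shares no seed with them:
mmu-miR-451a: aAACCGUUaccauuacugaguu

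The other white cell miRNAs listed did not pass between DMM and sham in cartilage. Beyond the 5, the myeloid, lymphoid and miR-142 lists held 11 miRNAs, of which 4 had values in cartilage: mmu-miR-146a-5p, mmu-miR-155-5p, mmu-miR-181a-5p and mmu-miR-181b-5p. All 4 come from the lymphoid list, so mmu-miR-223-3p was the only miRNA of the myeloid list with values in cartilage. A place on the lymphoid list does not limit a miRNA to lymphoid cells. At week 6 the DMM differences of these 4 ran from -0.03 to 0.25 with a median of 0.04, against -0.04 over all 438 rows. None passed in limma at either week. From week 1 to week 6 after DMM, 1 of these 4 passed in limma as higher, with 4.79% of the 438 rows past the threshold. In bone 6 of the 11 had values, mmu-miR-511-3p of the myeloid list among them, and none passed at either week. At week 1 in bone these 6 ran from -0.24 to 0.36 with a median of -0.18, against -0.06 over all 490 rows. At week 6 they ran from -0.25 to 0.12 with a median of -0.11, against -0.002.

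The myeloid and lymphoid miRNAs were then compared within each array, since a factor common to an array cancels in such a difference. In cartilage at week 6, mmu-miR-223-3p minus mmu-miR-342-3p averaged 0.81 ± 0.59 (SD, n = 3) after sham and 0.19 ± 0.48 (SD, n = 3) after DMM, an exact permutation p of 0.3. mmu-miR-223-3p minus mmu-miR-451a averaged -0.82 ± 0.23 after sham and -0.67 ± 0.09 after DMM, an exact permutation p of 0.5. After DMM the myeloid miRNA thus lay 0.15 higher against the red cell miRNA than after sham, and 0.62 lower against mmu-miR-342-3p, both within the spread between pools. Without sham week 6 replicate 3 these were 0.024 and -0.28, and without sham week 6 replicate 1 the first was 0.24. Over all 28 such two-sided tests of DMM against sham in both tissues, the smallest p was 0.2 and the smallest adjusted p was 1.0, and no pair of groups was free of overlap. With 3 arrays against 3 the exact test cannot go below 0.1, and with 4 against 4 it cannot go below 0.02857.

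The same differences set week 6 against week 1. This comparison was chosen after the values of both weeks had been seen, and week goes with age and, in bone, with animal number. In bone, mmu-miR-223-3p minus mmu-miR-451a was 1.13, 2.26, 0.37 and 0.72 after sham at week 1 and -0.66, -0.36, -0.53 and -0.73 at week 6. After DMM it was -0.03, 2.48, 0.16 and 0.67 at week 1 and -0.41, -0.20, -0.60 and -0.82 at week 6. In both operations every week 6 mouse lay below every week 1 mouse. The shift was -1.69 after sham and -1.33 after DMM, each with an exact two-sided permutation p of 0.02857, the smallest that design allows, and an adjusted p of 0.16 over 28 tests.

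In cartilage the same difference was -0.27, 0.37 and -0.05 after sham at week 1 and -0.65, -0.74 and -1.08 at week 6. After DMM it was -0.18, 0.24 and -0.01 at week 1 and -0.66, -0.76 and -0.59 at week 6. These groups did not overlap either, and their shifts were -0.84 and -0.69, each with an exact permutation p of 0.1, the smallest possible there. In bone mmu-miR-451a itself averaged 12.22 at week 1 and 13.11 at week 6 after sham, and 11.99 and 13.00 after DMM. In cartilage it averaged 7.46 and 9.13 after sham, where mmu-miR-223-3p also lay higher at week 6, and 7.46 and 7.79 after DMM. The shift was not seen for mmu-miR-223-3p alone: against mmu-miR-451a, mmu-miR-142a-3p separated the weeks in bone after DMM and in cartilage after sham, and mmu-miR-342-3p in cartilage after sham. None passed after adjustment over the 28 tests. In bone mmu-miR-223-3p minus mmu-miR-342-3p also separated the weeks after sham, with means of 4.43 and 3.55 and an exact permutation p of 0.02857. So did mmu-miR-223-3p minus mmu-miR-150-5p after sham, with means of 6.59 and 5.54 and the same exact permutation p. Both overlapped after DMM. In cartilage mmu-miR-142a-3p minus mmu-miR-223-3p separated the weeks after DMM. Of the 28 tests, 10 had groups free of overlap.

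**Figure D4:**
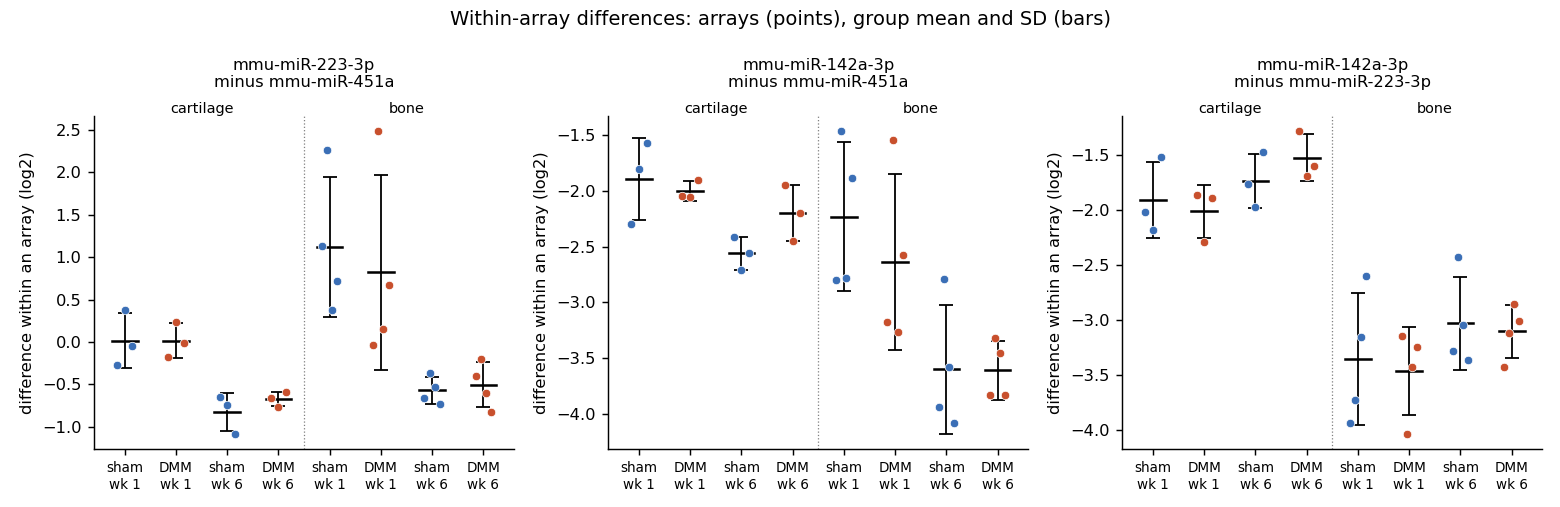
Within-array differences of log2 signal (vertical axes) between 2 miRNAs on every array (points), with group mean and SD, by tissue, operation and week (horizontal axes). mmu-miR-223-3p minus mmu-miR-451a is lower at week 6 than at week 1 with no overlap in each tissue and operation; sham and DMM of the same week overlap in all 3 panels.

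The arrays of a group were next compared among themselves, after subtracting the group mean of each miRNA. Over the 12 cartilage arrays, mmu-miR-142a-3p and mmu-miR-223-3p varied together, with Pearson's r of 0.876 and Spearman's rho of 0.916. mmu-miR-142a-3p was a weak row there, with a median of 14.2% of rows below it. The permutation p within groups, adjusted over 13 pairs, was 0.005 for r and 0.00871 for rho, and r was 0.883 without the 2 arrays farthest from the median. mmu-miR-342-3p did not pass with either, with r of 0.215 and 0.335 and adjusted permutation p of 0.828 and 0.704.

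In cartilage both also varied with the red cell miRNA. mmu-miR-451a had r of 0.935 with mmu-miR-142a-3p and 0.930 with mmu-miR-223-3p, each with an adjusted permutation p of 0.0151 over 8 pairs, and 0.265 with mmu-miR-342-3p. Spearman's rho was 0.916 for both of the first pairs, and r was 0.902 and 0.881 without the 2 farthest arrays. Over the 16 bone arrays these relations did not pass: r with mmu-miR-451a was 0.589 for mmu-miR-142a-3p, 0.612 for mmu-miR-142a-5p and 0.254 for mmu-miR-223-3p, with adjusted permutation p of 0.208 to 0.605. The difference of these relations between tissues was not tested. The pairs with mmu-miR-451a were chosen after its values had been seen.

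In bone the arms of miR-142, which the hairpin above yields together, had r of 0.922 and rho of 0.782, with adjusted permutation p of 0.0133 and 0.0416. Without the 2 farthest arrays, sham week 1 replicates 1 and 4, r was 0.702. mmu-miR-142a-5p and mmu-miR-223-3p had r of 0.797 and rho of 0.718, with adjusted permutation p of 0.005 and 0.0416, and r of 0.716 without those arrays. mmu-miR-142a-3p and mmu-miR-223-3p had r of 0.744 with an adjusted permutation p of 0.0133 and rho of 0.565 with 0.133. That pair rests in part on the same 2 mice, with r of 0.533 without them.

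No pair of a lymphoid with another leukocyte miRNA passed in bone. mmu-miR-150-5p had r of 0.123 with mmu-miR-142a-3p, 0.343 with mmu-miR-142a-5p and 0.176 with mmu-miR-223-3p, and mmu-miR-342-3p had r of -0.213 to 0.071. For mmu-miR-150-5p with mmu-miR-142a-5p rho was 0.506, with an adjusted permutation p of 0.133, and r was 0.539 without the 2 farthest arrays. For mmu-miR-342-3p with mmu-miR-142a-5p that r was 0.422. After quantile normalization r of mmu-miR-150-5p with mmu-miR-223-3p was 0.547. These correlations were not tested against those of the other pairs. With each other mmu-miR-150-5p and mmu-miR-342-3p had r of 0.552 and rho of 0.553, with adjusted permutation p of 0.134 and 0.133. After quantile normalization that r was 0.748 with an adjusted permutation p of 0.0149, and after centring on the 75th percentile 0.709 with 0.0229. Quantile normalization took mmu-miR-142a-3p with mmu-miR-223-3p to r of 0.609 and an adjusted permutation p of 0.0805.

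**Figure D5:**
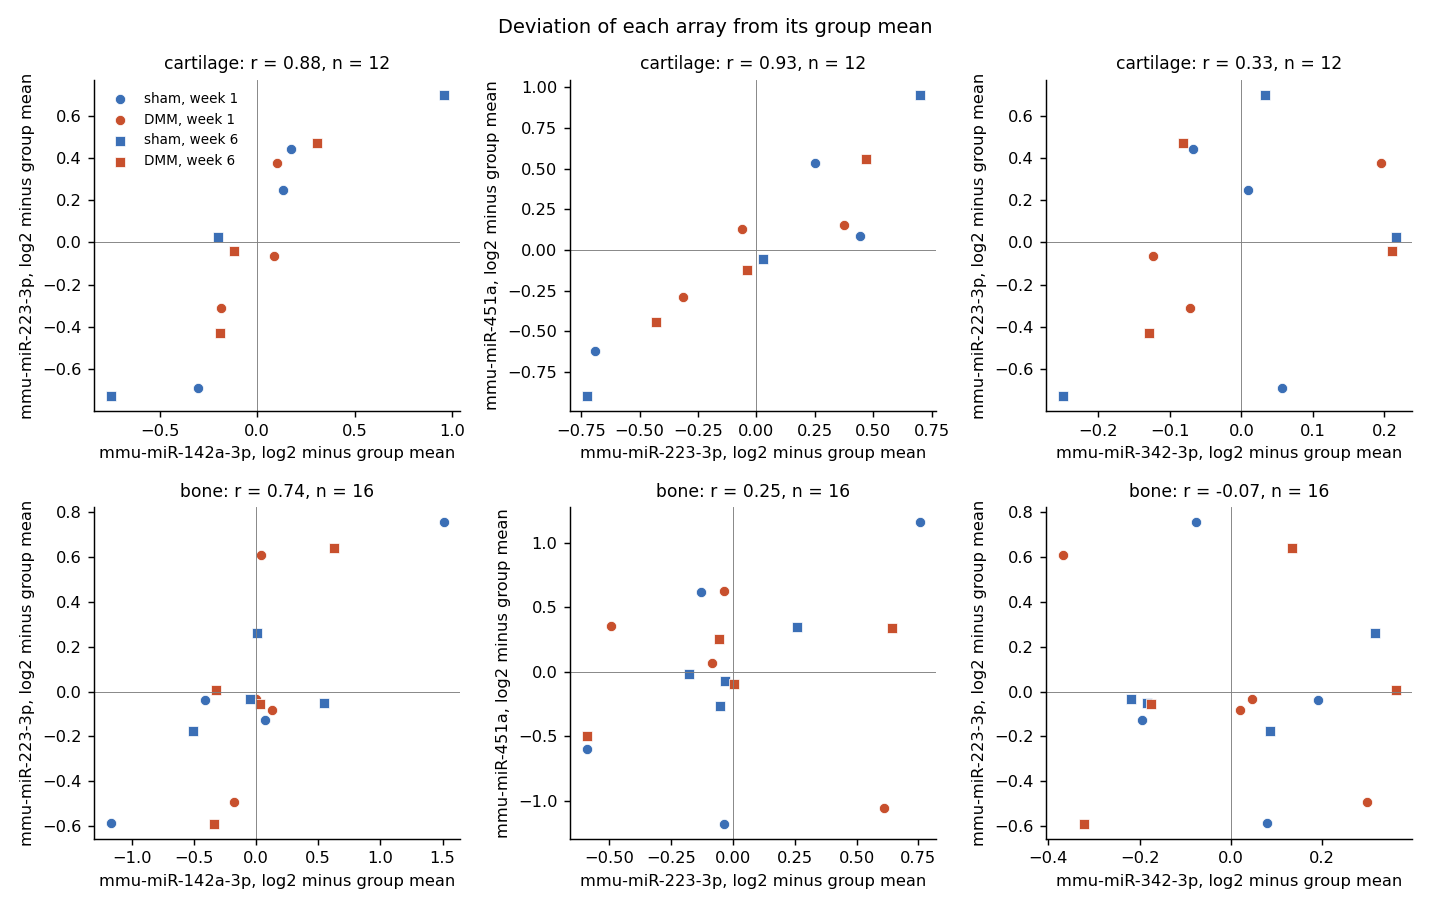
Deviation of each array from its group mean in log2 signal for 3 pairs of miRNAs (both axes), in cartilage (upper row, 12 arrays) and bone (lower row, 16 arrays), by operation (colour) and week (circles week 1, squares week 6). mmu-miR-142a-3p and mmu-miR-223-3p rise together in both rows, mmu-miR-223-3p and mmu-miR-451a do so in cartilage, and mmu-miR-342-3p with mmu-miR-223-3p did not pass in either.

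The miRNAs whose deviations were most like those of each leukocyte miRNA were named by r alone, with no test. In cartilage the nearest to mmu-miR-142a-3p were mmu-miR-20a-5p with 0.940, mmu-miR-20b-5p with 0.936 and mmu-miR-451a. The nearest to mmu-miR-223-3p were mmu-miR-451a, mmu-miR-93-5p with 0.832 and mmu-miR-7040-5p with 0.817. Of these mmu-miR-20a-5p, mmu-miR-20b-5p and mmu-miR-93-5p share a seed and are shown for that reason:
mmu-miR-20a-5p: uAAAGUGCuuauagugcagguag
mmu-miR-20b-5p: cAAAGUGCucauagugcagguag
mmu-miR-93-5p: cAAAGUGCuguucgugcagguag
The nearest to mmu-miR-342-3p in cartilage were mmu-miR-23a-5p with 0.886, mmu-miR-100-5p with 0.861 and mmu-miR-3472 with 0.857.

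In bone the neighbours were others. mmu-miR-142a-3p was nearest to mmu-miR-16-5p with 0.951, mmu-miR-19b-3p with 0.946 and mmu-miR-340-5p with 0.940. mmu-miR-142a-5p was nearest to mmu-miR-340-5p with 0.987, mmu-miR-26b-5p with 0.981 and mmu-miR-338-3p with 0.980. mmu-miR-223-3p was nearest to mmu-miR-338-3p with 0.821, mmu-miR-340-3p with 0.815 and mmu-miR-130b-3p with 0.805. Of these, mmu-miR-340-5p and mmu-miR-26b-5p are as poor in G and C as the miR-142 arms, with 27.3% and 33.3%. The others are richer. The share is 39.1% for mmu-miR-19b-3p, 40.9% for mmu-miR-338-3p and mmu-miR-340-3p, and 45.5% for mmu-miR-16-5p and mmu-miR-130b-3p.

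mmu-miR-150-5p had weaker neighbours in bone, mmu-miR-1949 with 0.773, mmu-miR-155-5p with 0.687 and mmu-miR-7020-3p with 0.679. mmu-miR-155-5p is a miRNA of activated lymphocytes and macrophages. mmu-miR-342-3p was nearest to mmu-miR-486a-3p with 0.810, mmu-miR-6995-5p with 0.790 and mmu-miR-874-3p with 0.775.

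The share of G and C in a sequence moved with these likenesses in bone. Mature sequences were matched for 81.9% of the 569 rows, with a median G and C share of 54.5%. The share was 34.8% for mmu-miR-142a-3p, 33.3% for mmu-miR-142a-5p, 40.9% for mmu-miR-223-3p and 52.2% for mmu-miR-342-3p. In bone the r of a row with mmu-miR-142a-3p fell as that row's G and C share rose, with Spearman's rho of -0.544 across 398 rows. The median r was 0.568 in the third of rows poorest in G and C and -0.24 in the richest. Spearman's rho was -0.521 for mmu-miR-142a-5p and -0.506 for mmu-miR-223-3p, and -0.517 for the red cell mmu-miR-451a.

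It was -0.347 for mmu-miR-150-5p and -0.18 for mmu-miR-342-3p. In cartilage, across 363 rows, rho was 0.048 for mmu-miR-142a-3p, 0.089 for mmu-miR-223-3p, -0.256 for mmu-miR-342-3p and 0.038 for mmu-miR-451a. These are across rows of the same arrays, which are not independent, and serve as description. The covariation of the miR-142 arms and mmu-miR-223-3p in bone thus came with a trend in base composition over the whole array, which that of mmu-miR-142a-3p and mmu-miR-223-3p in cartilage did not show. The trend in bone was not particular to them, as mmu-miR-451a had it too, though its correlations with them did not pass there. The part of base composition in the bone covariation was not tested.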

How the data were processed

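Small RNA from 28 dissected tissue samples had been labelled with Cy3 and read on 28 Agilent mouse miRNA arrays, per the labels' protocols. The authors deposited 1 table of log2 values, taken as log2 from their range. The submitters' processing notes name limma 3.20.9; background correction, normalization and row filter were not given in the sources used here. The table had 0 unused sample columns. Rows had been filled for each tissue apart, so 438 rows were fitted in cartilage and 490 in bone, with limma 3.58.1 in R 4.3.3, group means and empirical Bayes, and adjusted by Benjamini-Hochberg over all rows. There were 12 comparisons. Both tissues entered 1 fit of 359 shared rows, as independent arrays. Within-array differences used exact permutation tests (scipy 1.17.1), and correlations 100000 permutations within groups. P-values measure the spread between pools or mice. The miRNAs and lists were chosen with earlier results of these data known. Named miRNAs were the 5, the listed markers, and the 3 nearest by r. Sequences and coordinates came from RefSeq tables of GRCm38.p6. Scripts were tested on simulated data. Alternatives covered normalization, centring, low rows, prior, array weights, arrays in the fit, a bone trend score, the replicate block and each array left out.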

Additional observations from a re-analysis of the deposited data

How the results depend on the processing

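The 33 differences given for single miRNAs were recomputed to 794 values over the settings, of which 737 kept direction and side of the threshold. Most of the 33 had not passed in the main fit, so that total says little about the calls. Of the 2 that had, both in cartilage at week 6, mmu-miR-223-3p was lost in 15 of 20 alternatives. mmu-miR-342-3p was lost in 6 of 20. In cartilage at week 6 the count of leukocyte miRNAs past the threshold, 2 of 3, was 1 after quantile normalization and with a trend and robust prior, and 0 with only the compared groups in the fit and with the bone trend score as a covariate. It ran from 0 to 3 with each array left out. With the cartilage replicate number as a block it was 1, with mmu-miR-223-3p at an adjusted p of 0.056. Same-numbered cartilage arrays did not deviate together, with correlations from -0.39 to 0.03 at week 1 and from -0.48 to -0.04 at week 6. With 3 arrays in a group these values cannot exclude a pairing, and the main fit used none. The bone titles give animal numbers, shared by no groups and all lower at week 6 than at week 1. At week 1 in cartilage the count of 0 became 1 after centring on the 75th percentile, with array weights and with only the compared groups in the fit, and ran from 0 to 1 with arrays left out. Sham week 6 against week 1 in cartilage went from 0 to 2 with array weights, and from 0 to 1 with arrays left out. In bone array weights gave 2 for sham and 1 for DMM between weeks. The other counts, of the change of the DMM difference between weeks, the bone differences at each week, the difference between tissues and the pair differences, stayed at 0 in every setting run. The bone trend score set the operations apart in cartilage. With it, the week 1 differences there turned to 0.078 for mmu-miR-142a-3p and 0.267 for mmu-miR-223-3p. Arrays left out took the latter from -0.349 to 0.216. In bone at week 6, differences near 0 turned to 0.0135 for mmu-miR-142a-5p, 0.015 for mmu-miR-223-3p and 0.0171 for mmu-miR-342-3p with that score, and to 0.0784 for mmu-miR-142a-3p with array weights. There, arrays left out gave ranges of -0.33 to 0.0617 for mmu-miR-142a-3p, -0.316 to 0.0779 for mmu-miR-142a-5p, -0.261 to 0.151 for mmu-miR-223-3p, -0.26 to 0.122 for mmu-miR-150-5p and -0.139 to 0.0896 for mmu-miR-342-3p. In bone at week 1 mmu-miR-150-5p ranged from -0.348 to 0.0744. Between weeks after sham in bone, mmu-miR-142a-3p ranged from -0.862 to 0.0307 and mmu-miR-342-3p from -0.021 to 0.158. None of these passed. In bone the r of mmu-miR-223-3p and mmu-miR-342-3p, -0.066, turned to 0.328 after quantile normalization and to 0.074 after centring. The causes were not tested, beyond fewer arrays in the fits that drop groups or arrays. Scanner background and detection values were not used here, so how far a row stood above background is unknown.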
